A study of Triticum aestivum with 14 samples.

Results

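The whole wheat floret labelled F5 was compared with the lemma alone across all genes, to show what the floret expresses above or below this organ. The species was bread wheat (Triticum aestivum), and RNA was read by bulk RNA-seq. Of 14 libraries in the study, 5 enter the comparison: F5 replicates 1, 2 and 3, and Lemma replicates 1 and 3. All 14 libraries came from untreated central spikelets taken 21 days after the terminal spikelet stage and carry the label N50, which is not explained. The study's design text describes a comparison of fertile with abortive florets, and of lemma, anther and ovary within the fertile floret. The labels do not say which floret F5 is beyond its name. The other libraries are F1 (n = 3), Anther (n = 3) and Ovary (n = 3), and they are used here only to place the genes that differ.

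The lemma is the outer of the leaf-like bracts that enclose a grass floret. It is green, carries stomata and a cuticle, and stiffens as its walls lignify. The palea, the lodicules that push the floret open, the stamens and the pistil lie inside it. Florets are numbered from the base of the wheat spikelet, and distal florets often stop developing before flowering. A whole floret includes its own lemma, so F5 and Lemma differ both in the organs they hold and in the floret they came from, and these cannot be told apart here. In bulk tissue, fewer cells of a type and less RNA per cell cannot be told apart either.

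Total counts were 100415586 to 105526441 in F5 and 98099271 to 100117298 in Lemma. Within a group, libraries correlated at 0.974 to 0.984 across genes (log2 CPM, counts scaled to library size), and their counts differed by far more than sampling noise, with a chi-square per degree of freedom of 40.3 to 67.8, so no library was a copy of another. The labels do not say that replicates were separate plants, so p-values measure only the spread between these samples, part of which may be technical. Rubisco small-chain genes, a leaf marker, took 3.21 to 3.58% of the counts in F5 and 4.48 to 4.53% in Lemma, against 0.018 to 0.0364% in Anther and Ovary, so both groups carried the marker of green tissue. Ribosomal RNA genes took 0.605 to 1.61% of the counts in F5 and 1.98 to 2.01% in Lemma. Of 745 tested ribosomal RNA genes 221 were lower in F5 and 4 higher, and their part in other differences was not tested.

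Of 100591 genes, 69970 had enough counts to be tested with edgeR's quasi-likelihood test. Calls needed an adjusted p (Benjamini-Hochberg) under 0.05 together with a difference of 2-fold or more. Between F5 and Lemma, 19799 genes (28.3%) were called, of which 10354 (14.8%) were higher in F5 and 9445 (13.5%) lower. Changes of at least 16-fold were found for 2497 higher and 1601 lower genes. In Lemma 1434 of the higher genes had no counts, and in F5 376 of the lower genes had none. Lower genes were the more abundant ones: 1910 of the higher genes reached 10 FPKM in F5, and 3084 of the lower genes reached 10 FPKM in Lemma. FPKM is the authors' count of fragments scaled to gene length and library size. It lacks TMM, the normalization of library sizes behind the calls and fold changes. TMM factors over all 14 libraries were 0.909 to 0.933 in F5 and 0.776 and 0.792 in Lemma. FPKM and shares of counts thus put F5 higher against Lemma than the fold changes do. The median log2 fold change over all tested genes was 0.07.

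Most of the higher genes were more abundant in F5 than in the isolated anther or ovary. Among F5, Lemma, Anther and Ovary, the highest mean level of the 10354 higher genes lay in F5 for 6765 (65.3%), in Ovary for 2019 (19.5%) and in Anther for 1570 (15.2%). Of the 9445 lower genes, 7107 (75.2%) had their highest level in Lemma, 1179 (12.5%) in Ovary and 1159 (12.3%) in Anther. Over all tested genes each of the 4 groups held the highest level of 24.6 to 25.3%. A gene called higher in F5 cannot be highest in Lemma, and a gene called lower cannot be highest in F5. The call thus shapes these shares, and they cannot be set directly against those over all genes. The same holds for the counts of highest level by list below.

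Cell wall loosening genes were higher in F5. Expansins loosen the wall as cells enlarge. Of 27 tested expansin genes 21 were higher and 0 lower, against 14.8% higher and 13.5% lower over all genes. Their median log2 fold change was 2.50 (2.23 with genes at 0 in Lemma set to their bound). Expansin genes summed to 231 to 346 FPKM in F5 and 37.4 and 48.0 FPKM in Lemma. The isolated organs were not low, at 606 to 674 FPKM in Anther and 336 to 472 FPKM in Ovary. Xyloglucan endotransglucosylase/hydrolases (XTHs) cut and rejoin the xyloglucan chains that tether cellulose. Of 84 tested XTH genes 48 were higher and 8 lower, with a median of 2.29. The lower count was 2 without Lemma replicate 3, 3 without F5 replicate 1 and 4 without F5 replicate 2 or 3. Summed over the list, XTH genes reached 1135, 876 and 1237 FPKM in F5 replicates 1, 2 and 3, and 186 and 364 FPKM in Lemma replicates 1 and 3. F5 and Lemma did not overlap, and Lemma replicate 3 lay nearer to F5 than Lemma replicate 1 did. In Ovary the sum was 751 to 1537 FPKM, which overlapped F5, and in Anther it was 175 to 256 FPKM.

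**Figure D1:**
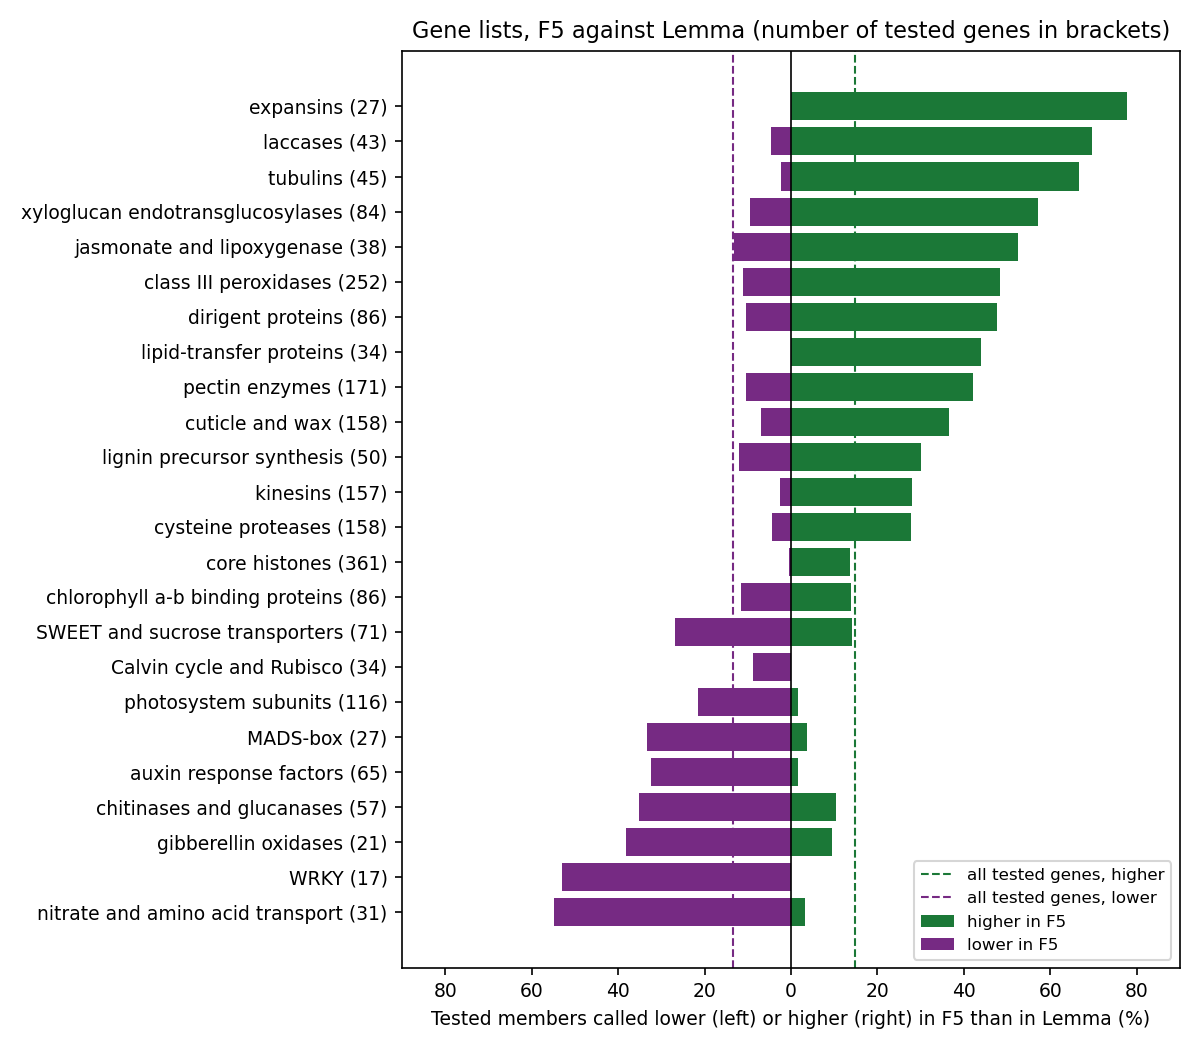
Share of the tested genes of 24 gene lists called higher (green, to the right) or lower (purple, to the left) in F5 than in Lemma, in percent, with the number tested in brackets. Dashed lines mark the shares over all tested genes (14.8% higher, 13.5% lower). Expansins (77.8% higher) and laccases (69.8%) lie far to the right of the background, and nitrate and amino acid transport (54.8% lower) and WRKY genes (52.9%) far to the left.

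The XTH gene TraesCS3D02G093900 (chromosome 3D, positions 47707611 to 47708835, minus strand, on the deposited table's build, which is not given) had 17.5, 15.5 and 16.3 FPKM in the F5 libraries and no counts in either Lemma library. It was at least 1212-fold higher in F5, taking 3 counts over the Lemma group as the floor (adjusted p = 0.000288). In Anther it was 0.0267 FPKM or less, and in Ovary 0.186 to 0.443 FPKM. A further XTH gene, TraesCS7B02G327400, had 40.4, 33.8 and 25.7 FPKM in F5 and 0.24 and 0.465 FPKM in Lemma (log2 fold change 6.30, SE 0.405, adjusted p = 0.000418). Its Anther and Ovary libraries stayed under 1 FPKM, so this level was found in the F5 libraries and not in the isolated organs. The expansin gene TraesCS1D02G299700 had 47.2, 31.1 and 26.9 FPKM in F5 and 1.42 and 0.541 FPKM in Lemma (log2 fold change 4.91, SE 0.507, adjusted p = 0.00109). That gene was also abundant in Anther, at 23.5 to 39.9 FPKM. The expansin gene TraesCS1B02G310300 was highest in Anther (27.3 to 42.0 FPKM), with 20.1, 11.5 and 11.2 FPKM in F5 and 0.0631 and 0.188 FPKM in Lemma.

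Enzymes that modify pectin, the gel-like polymer between cells, included 72 higher and 18 lower among 171 tested genes (median 1.12). The pectinesterase gene TraesCS5D02G053200 had 10.7, 7.1 and 13.2 FPKM in F5 against 0.136 and 0.24 FPKM in Lemma (log2 fold change 5.51, SE 0.428, adjusted p = 0.000558). Pectin enzyme genes summed to 411 to 551 FPKM in F5, 167 and 178 FPKM in Lemma and 4908 to 5289 FPKM in Anther, where pollen carries many such enzymes, so F5 lay far below Anther. Of the 72 higher pectin enzyme genes, 42 had their highest level in F5, 21 in Ovary and 9 in Anther. Cellulose synthase genes included 12 higher and 7 lower among 62 tested genes (median 0.66). The higher count was 7 without Lemma replicate 3 and 18 without Lemma replicate 1.

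Genes of lignification and phenolic coupling were also higher in F5. Laccases and class III peroxidases oxidise lignin precursors in the wall, and dirigent proteins steer the coupling of the radicals that form. Of 43 tested laccase genes 30 were higher and 2 lower (median 3.23, or 2.89 with genes at 0 in Lemma at their bound). Dirigent protein genes included 41 higher and 9 lower among 86 tested genes (median 2.43), and class III peroxidase genes included 122 higher and 28 lower among 252 tested genes (median 1.99). Without Lemma replicate 3 the lower counts were 5 for dirigent genes and 14 for peroxidases. Laccase genes summed to 274, 284 and 359.7 FPKM in the F5 libraries and 66.5 and 69.3 FPKM in the Lemma libraries. In the isolated organs they were low, at 3.07 to 3.80 FPKM in Anther and 6.62 to 8.21 FPKM in Ovary. Of the 30 higher laccase genes 28 had their highest level in F5, as did 40 of the 41 higher dirigent genes. For the 122 higher peroxidase genes the highest level lay in F5 for 90, in Ovary for 25 and in Anther for 7. All listed peroxidase genes summed to 934 to 1176 FPKM in F5 and 458 and 592 FPKM in Lemma. The sum was greater in Anther, at 2311 to 2476 FPKM, and was 574 to 743 FPKM in Ovary.

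The laccase gene TraesCS1B02G293100 (chromosome 1B, positions 510808365 to 510810963, plus strand) had 13.1, 10.6 and 18.5 FPKM in F5 and 0.196 and 0.404 FPKM in Lemma (log2 fold change 5.29, SE 0.445, adjusted p = 0.000664). It had no FPKM above 0 in Anther and at most 0.0928 FPKM in Ovary. The dirigent gene TraesCS3B02G095400 had 10.9, 6.76 and 14.3 FPKM in F5 and no counts in Lemma, and was at least 598-fold higher (adjusted p = 0.00066). The dirigent gene TraesCSU02G010400, on an unplaced sequence, varied more within F5, at 16.9, 89.4 and 77.2 FPKM, against 0.247 and 0.5 FPKM in Lemma (log2 fold change 7.08, SE 0.918, adjusted p = 0.00219). F5 replicate 1 was the low library for this gene, and it was still far above both Lemma libraries. The peroxidase gene TraesCS1D02G096400 had 16.1, 8.41 and 5.78 FPKM in F5 and 0.0221 and 0.0549 FPKM in Lemma (log2 fold change 7.70, SE 0.705, adjusted p = 0.000821).

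For the enzymes that make the lignin precursors, 15 of 50 tested genes were higher (30.0%, against 14.8% of all genes). In this list 6 were lower (12.0%, near the 13.5% of all genes), and the median was 0.39. Without Lemma replicate 1 the lower count was 2, and without Lemma replicate 3 it was 4. Phenylalanine ammonia-lyase (PAL) opens the phenylpropanoid pathway. The PAL gene TraesCS6B02G258400 had 125, 133 and 157 FPKM in F5 and 12.5 and 14.8 FPKM in Lemma (log2 fold change 3.09, SE 0.195, adjusted p = 0.000414), and at most 0.116 FPKM in Anther. The PAL gene TraesCS1D02G103500 showed the opposite order, with 0.911, 4.66 and 7.11 FPKM in F5 and 36.3 and 28.9 FPKM in Lemma (log2 fold change -3.19, SE 0.712, adjusted p = 0.0146). That call was lost without Lemma replicate 1 (log2 fold change -3.02) and without Lemma replicate 3 (-3.35). The flavone O-methyltransferase gene OMT1 (TraesCS7B02G245500), which methylates phenolic compounds, had 134, 130 and 141 FPKM in F5 and 15.4 and 16.6 FPKM in Lemma (log2 fold change 2.83, SE 0.163, adjusted p = 0.000377). The fasciclin-like gene FLA16 (TraesCS1A02G107500), a wall-anchored glycoprotein gene, had 35.3, 39.4 and 69.8 FPKM in F5 and 4.34 and 4.64 FPKM in Lemma, in a list of 9 arabinogalactan and fasciclin genes with 5 higher and 0 lower.

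**Figure D2:**
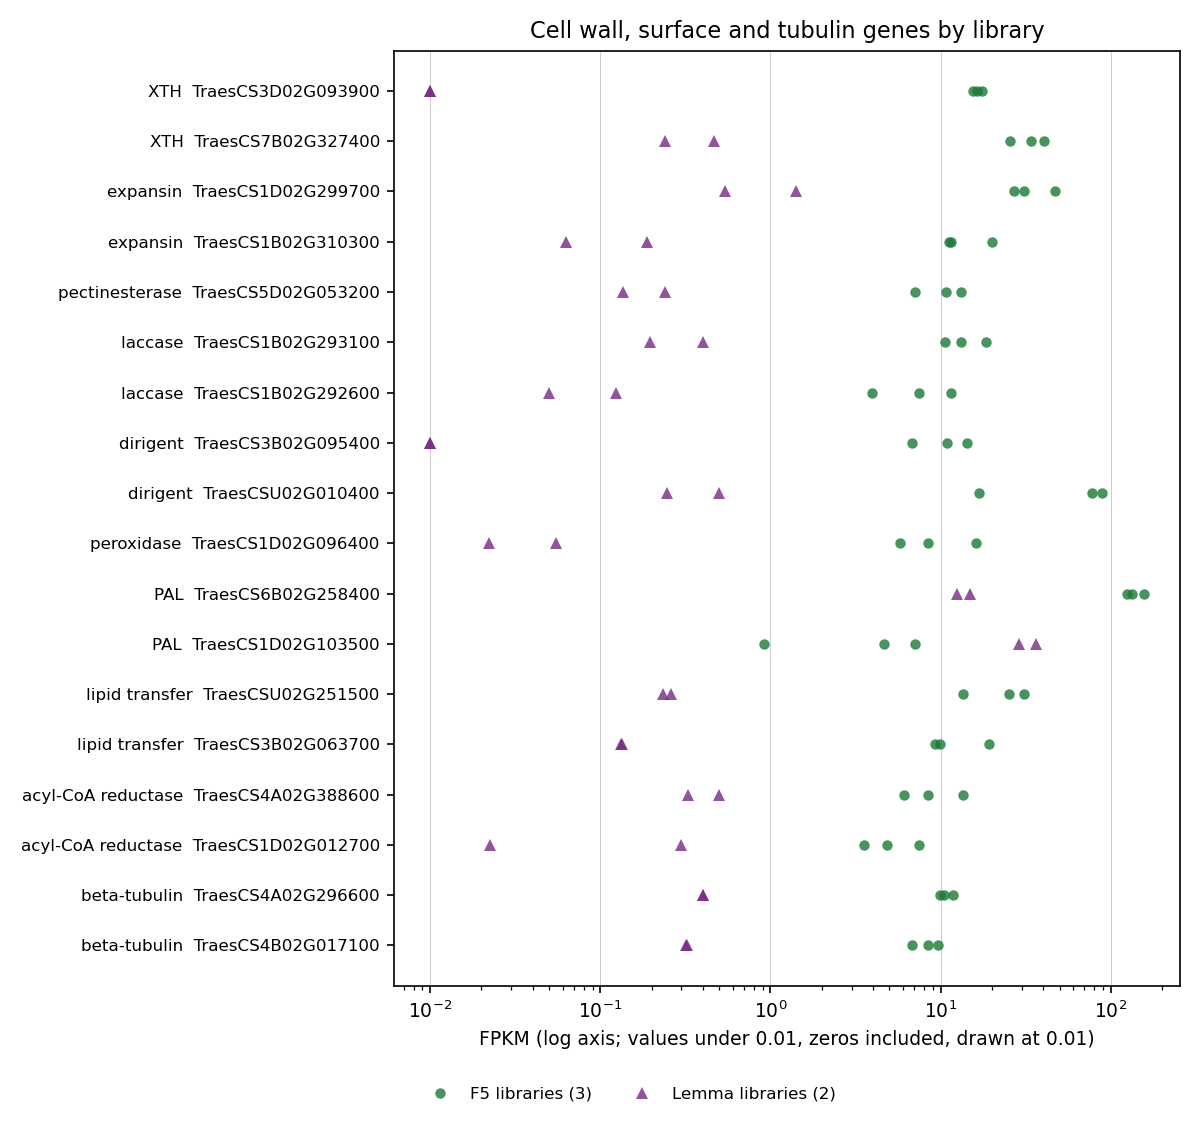
FPKM (log axis) of 18 wall, surface and tubulin genes in each F5 library (green circles) and each Lemma library (purple triangles), with zeros drawn at 0.01. In every gene plotted the F5 and Lemma libraries do not overlap, and the PAL gene TraesCS1D02G103500 is the gene with the opposite order (0.911 to 7.11 FPKM in F5, 28.9 and 36.3 in Lemma).

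Genes of the plant surface followed. Non-specific lipid-transfer proteins carry lipids toward the cuticle and the wall, and 15 of 34 tested genes were higher in F5 and 0 lower (median 1.79). Their sum was 2764, 2421 and 1703 FPKM in F5 and 476 and 824 FPKM in Lemma, with F5 replicate 3 the lowest of the F5 libraries. In Anther the sum was 40.8 to 45.1 FPKM, and in Ovary it was 679 to 849.5 FPKM, which overlapped Lemma. TraesCSU02G251500 had 31.0, 25.3 and 13.6 FPKM in F5 and 0.235 and 0.262 FPKM in Lemma (log2 fold change 6.20, SE 0.485, adjusted p = 0.000564). The list of cuticle and wax genes, which holds the elongases of very-long-chain fatty acids and the fatty acyl-CoA reductases that turn them into wax alcohols, had 58 of 158 genes higher and 11 lower (median 1.03). Without Lemma replicate 1 the higher count was 37, and the lower count was 3 without Lemma replicate 3 and 6 without Lemma replicate 1 or F5 replicate 1. The fatty acyl-CoA reductase gene TraesCS4A02G388600 had 13.6, 8.41 and 6.06 FPKM in F5 and 0.496 and 0.329 FPKM in Lemma (log2 fold change 4.25, SE 0.439, adjusted p = 0.00109), and at most 0.0334 FPKM in Anther and Ovary.

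Tubulins, the subunits of microtubules, included 30 higher and 1 lower among 45 tested genes (median 1.37). Summed tubulin levels were 2949.7, 2564 and 3195 FPKM in F5 and 1099.7 and 971 FPKM in Lemma, and these groups did not overlap. In Ovary the sum was 2712 to 3377 FPKM, which overlapped F5, and in Anther it was 1325 to 1455 FPKM. The beta-tubulin gene TraesCS4A02G296600 had 10.5, 9.96 and 11.8 FPKM in F5 and 0.4 and 0.403 FPKM in Lemma (log2 fold change 4.49, SE 0.204, adjusted p = 0.0003), and 29.1 to 31.6 FPKM in Anther. Kinesins, the motors that move along microtubules, included 44 higher and 4 lower among 157 tested genes (median 0.69). Without Lemma replicate 3 the higher count for kinesins was 26.

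Markers of dividing cells differed by list. Cyclins and cyclin-dependent kinases, which drive the cell cycle, included 9 higher (23.7%, against 14.8% of all genes) and 3 lower among 38 tested genes. Their sum was 135, 127 and 142 FPKM in F5 and 80.8 and 84.7 FPKM in Lemma, without overlap. In Anther it was 126 to 137 FPKM, which overlapped F5, and in Ovary 208 to 241 FPKM, above F5. All 9 higher genes had their highest level in F5 among F5, Lemma, Anther and Ovary. Core histone genes were higher in 49 of 361 tested cases (13.6%) and lower in 2, with a median of 0.95. The histone count depended on the setting, with 22 higher without Lemma replicate 1, 28 without F5 replicate 2, 69 without Lemma replicate 3 and 116 both with all 14 libraries in 1 fit and with limma on log2(FPKM + 0.1). Core histones summed to 1512, 1583 and 1535 FPKM in F5, 946 and 1150.3 FPKM in Lemma and 20142 to 26062 FPKM in Ovary, so both groups lay far below the isolated ovary. All 49 higher histone genes had their highest level in Ovary. The histone copies are near-identical, and reads may be split between them, so single histone genes are uncertain. DNA replication genes included 8 higher (14.0%, near the 14.8% of all genes) and 6 lower among 57 tested genes. The higher count was 0 after quantile normalization. Without Lemma replicate 1, Lemma replicate 3 or F5 replicate 1 the higher count was 4, without F5 replicate 2 it was 5, and with all 14 libraries in 1 fit it was 18. Their sum was 30.4 to 39.8 FPKM in F5, 28.9 and 29.9 FPKM in Lemma and 76.5 to 78.9 FPKM in Anther. Whether the small gap between F5 and Lemma holds under TMM was not tested. Meiosis genes included 15 higher (14.0%, again near the background) and 3 lower among 107 tested genes (median 0.28). For meiosis the higher count was 5 without F5 replicate 1 and 2 after quantile normalization. Cytosolic ribosomal protein genes included 0 higher and 2 lower among 152 tested genes (median -0.44).

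Among photosynthesis genes, those for photosystem subunits, which encode the reaction centres, were lower in F5 in 25 of 116 tested cases (21.6%, against 13.5% of all genes) and higher in 2 (median -0.63). Their sum was 8725, 9867 and 10023 FPKM in F5 and 11325 and 12800.1 FPKM in Lemma. Calvin cycle and Rubisco genes, which fix carbon, included 3 lower (8.82%, under the background) and 0 higher among 34 tested genes (median -0.71). The lower count was 7 without F5 replicate 1, 8 without F5 replicate 2 and 5 without Lemma replicate 3. Their sum was 29484 to 34089 FPKM in F5 and 41960 and 43978 FPKM in Lemma, without overlap. Chlorophyll a-b binding protein genes, which encode the light-harvesting antenna, were higher in 12 (14.0%) and lower in 10 (11.6%) of 86 cases, near the background. Their median of -0.17 turned positive after quantile normalization (0.301), and their sums overlapped, at 13404 to 15344 FPKM in F5 and 11348 and 13749.5 FPKM in Lemma. The antenna gene TraesCS5B02G462800 was among the lower ones, with 2.46, 3.12 and 3.17 FPKM in F5 and 29.8 and 33.7 FPKM in Lemma (log2 fold change -3.69, SE 0.182, adjusted p = 0.000314). The photosystem II gene for Psb28 (TraesCS3D02G354300), a protein of photosystem assembly, had 22.4, 26.6 and 36.8 FPKM in F5 and 101 and 109 FPKM in Lemma (log2 fold change -2.12, SE 0.233, adjusted p = 0.00132). In Anther and Ovary each of the 3 lists summed to 683 FPKM or less, far below both groups.

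Among sugar genes the lists differed, and named sucrose synthase genes went opposite ways. SWEET proteins let sugars pass through membranes, and sucrose transporters load sucrose against a gradient. Of 71 tested genes of both kinds 19 were lower (26.8%, against 13.5% of all genes) and 10 higher (14.1%, near the 14.8% of all genes). Their median of -0.22 turned positive after quantile normalization (0.071) and without Lemma replicate 1 (0.019). The SWEET gene TraesCS5A02G289200 (chromosome 5A, positions 496010188 to 496011933, minus strand) had 0.231, 0.367 and 0.333 FPKM in F5 and 10.9 and 21.2 FPKM in Lemma (log2 fold change -5.92, SE 0.366, adjusted p = 0.000413). It was far higher in the isolated organs, at 147 to 213 FPKM in Anther and 58.9 to 62.3 FPKM in Ovary, and had 13.1 to 27.2 FPKM in F1. F5 was thus the lowest of the 5 groups for this gene. The SWEET gene TraesCS3B02G287200 had 0.398, 0.637 and 0.786 FPKM in F5 and 27.4 and 15.4 FPKM in Lemma (log2 fold change -5.37, SE 0.374, adjusted p = 0.000479), and it stayed under 1 FPKM in Anther and Ovary.

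Sucrose synthase, which cleaves sucrose for use by the cell, showed 6 of 33 genes higher (18.2%, against 14.8% of all genes) and 8 lower (24.2%, against 13.5%). Without Lemma replicate 1 the lower count was 3. The gene TraesCS7A02G040900 (chromosome 7A, positions 19002179 to 19007777, plus strand) had 35.0, 19.3 and 44.6 FPKM in F5 and 0.441 and 0.369 FPKM in Lemma (log2 fold change 6.09, SE 0.466, adjusted p = 0.000543). The gene TraesCS2A02G168200 went the other way, with 0.545, 0.554 and 0.704 FPKM in F5, 8.51 and 9.64 FPKM in Lemma and 159 to 217 FPKM in Anther (log2 fold change -4.16, SE 0.198, adjusted p = 0.000308). All 8 lower sucrose synthase genes had their highest level in Anther, and all 6 higher ones in F5. Invertases, which split sucrose into hexoses, included 11 higher and 8 lower among 26 tested genes, and their sum was 427 to 639.9 FPKM in F5 and 197 and 229 FPKM in Lemma.

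Storage carbohydrate genes differed by list. Starch synthesis genes included 1 higher and 0 lower among 31 tested genes, or 5 higher and 2 lower without Lemma replicate 3. Amylases, which break starch down, included 9 higher and 2 lower among 35 tested genes, and 5 higher without Lemma replicate 1 or F5 replicate 3. All 4 tested fructan genes were called, 2 higher and 2 lower. Fructan 1-exohydrolase w1 (1-FEHw1, TraesCS6A02G060700), which breaks fructan down, had 136, 112 and 86.1 FPKM in F5 and 11.6 and 10.4 FPKM in Lemma (log2 fold change 3.09, SE 0.247, adjusted p = 0.000589). Sucrose:sucrose 1-fructosyltransferase (TraesCS7D02G008700), which starts fructan synthesis, had 1.74, 1.81 and 2.27 FPKM in F5 and 11.0 and 8.24 FPKM in Lemma (log2 fold change -2.55, SE 0.207, adjusted p = 0.000603). Trehalose 6-phosphate synthases and phosphatases, which set the level of a sugar signal, included 19 higher and 10 lower among 52 tested genes. The phosphatase gene TraesCS5D02G200800 had 7.87, 11.8 and 15.1 FPKM in F5 and 46.9 and 77.2 FPKM in Lemma (log2 fold change -2.67, SE 0.328, adjusted p = 0.00184).

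Many nitrogen transport genes were lower in F5, most of them at low levels. Of 31 tested nitrate, ammonium and amino acid transporter genes 17 were lower and 1 higher (median -2.20). The lower count was 4 after quantile normalization and 4 with limma on log2(FPKM + 1). Only 2 of the genes had a mean of at least 5 FPKM, and 0 of these were called lower in the fit of such genes. The median stayed negative under every setting (-3.3 to -0.302). Without Lemma replicate 1 the lower count was 9, and without Lemma replicate 3 it was 11. Their sum was 30.9, 38.2 and 41.0 FPKM in F5 and 66.5 and 68.7 FPKM in Lemma. The ammonium transporter gene TraesCS2A02G365000 had 0.0965, 0.366 and 0.209 FPKM in F5 and 9.96 and 10.8 FPKM in Lemma (log2 fold change -5.77, SE 0.466, adjusted p = 0.0006). Water channel and silicon transport genes included 4 higher and 1 lower among 12 tested genes. The tonoplast aquaporin gene TIP2;2 (TraesCS7B02G243000) had 32.4, 32.7 and 38.6 FPKM in F5 and 3.71 and 3.98 FPKM in Lemma (log2 fold change 2.92, SE 0.184, adjusted p = 0.000413). In Anther it had 164 to 192 FPKM. The lower gene, the NOD26-like channel gene TraesCS7D02G188800, had 2.48, 2.97 and 1.70 FPKM in F5 and 19.4 and 23.5 FPKM in Lemma (log2 fold change -3.42, SE 0.253, adjusted p = 0.000511).

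**Figure D3:**
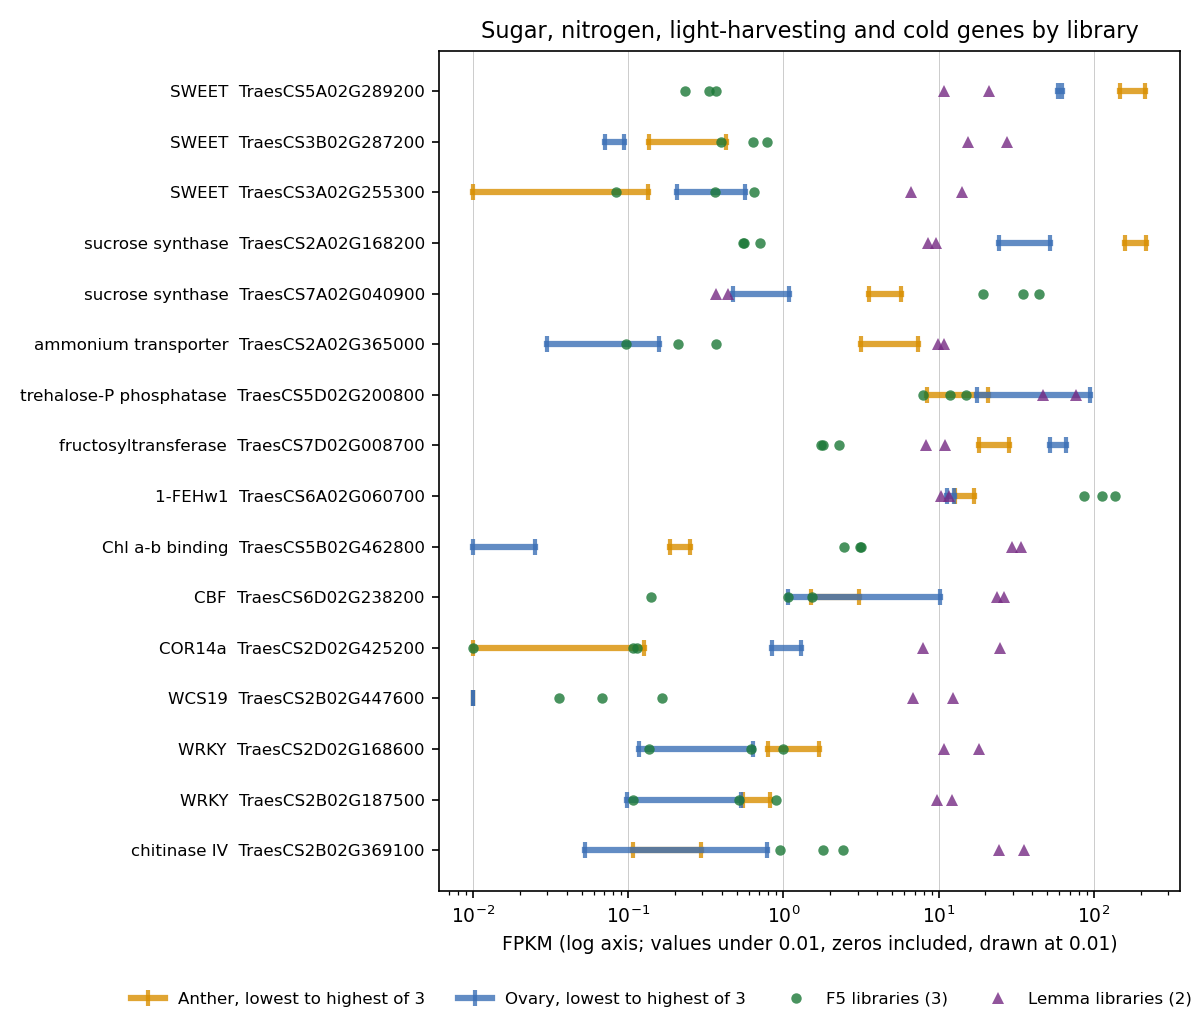
FPKM (log axis) of 16 sugar, nitrogen, light-harvesting, cold and defence genes in each F5 (green circles) and Lemma (purple triangles) library, with bars from the lowest to the highest of 3 libraries for Anther (orange) and Ovary (blue), and values under 0.01 drawn at 0.01. F5 lies below Lemma in every gene but the sucrose synthase gene TraesCS7A02G040900 and 1-FEHw1, and the SWEET gene TraesCS5A02G289200 and the sucrose synthase gene TraesCS2A02G168200 are highest in Anther.

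Among hormone genes the lists differed. Lipoxygenases and the enzymes that follow them in jasmonate synthesis included 20 higher (52.6%, against 14.8% of all genes) among 38 tested genes (median 1.55). In this list 5 were lower (13.2%, near the 13.5% of all genes). The lipoxygenase gene Lpx-A3 (TraesCS4A02G275900) had 39.9, 29.3 and 24.8 FPKM in F5 and 3.85 and 2.97 FPKM in Lemma (log2 fold change 2.95, SE 0.276, adjusted p = 0.000854). The lipoxygenase gene TraesCS5B02G382300 had 15.8, 16.4 and 11.1 FPKM in F5 and 0.597 and 1.01 FPKM in Lemma (log2 fold change 3.91, SE 0.328, adjusted p = 0.00066), below its 41.9 to 49.2 FPKM in Ovary. Cytokinin metabolism genes included 17 higher (29.3%) and 6 lower (10.3%, under the 13.5% of all genes) among 58 tested genes (median 0.75). Without Lemma replicate 3 the lower count was 3. Genes for the enzyme that releases active cytokinin went opposite ways. TraesCS1B02G173200 had 4.69, 6.23 and 4.90 FPKM in F5 and 0.68 and 0.772 FPKM in Lemma, and TraesCS3B02G281000 had 1.15, 1.46 and 0.405 FPKM in F5 and 5.06 and 5.32 FPKM in Lemma.

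Auxin response factors, the transcription factors that carry the auxin signal to genes, included 21 lower and 1 higher among 65 tested genes (median -0.72). TraesCS3B02G475800 had 12.6, 16 and 11.6 FPKM in F5 and 42.5 and 33.6 FPKM in Lemma (log2 fold change -1.75, SE 0.195, adjusted p = 0.00137). Aux/IAA genes, their repressors, included 17 lower (23.9%) and 11 higher (15.5%, near the 14.8% of all genes) among 71 tested genes. The higher count was 7 without Lemma replicate 1 or F5 replicate 1. Auxin efflux carriers included 6 higher and 6 lower among 27 tested genes, or 1 lower without Lemma replicate 1. Gibberellin oxidases, which make and inactivate gibberellins, included 8 lower and 2 higher among 21 tested genes (median -1.09). All 4 called genes of 6 tested in ethylene synthesis were lower. The count was 2 without Lemma replicate 1 and also with all 14 libraries in 1 fit. The abscisic acid list had 7 of 20 genes higher and 5 lower, or 2 lower without either Lemma library. Its ABA 8'-hydroxylase gene TraesCS6A02G271300, for the enzyme that breaks abscisic acid down, had 3.11, 14.9 and 10.5 FPKM in F5 and 44.5 and 53.1 FPKM in Lemma (log2 fold change -2.61, SE 0.558, adjusted p = 0.0126), a call lost without Lemma replicate 1 (-2.73) and without Lemma replicate 3 (-2.47).

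MADS-box genes specify the identity of floral organs in grasses, with different classes active in bracts, lodicules, stamens and carpels. Of 27 tested MADS-box genes 9 were lower in F5 and 1 higher (median -0.59). Among them 19 carry a name or description and reached 5 FPKM, and they include all 10 that were called. The APETALA3-like gene TraesCS7D02G380300 belongs to the class that specifies lodicules and stamens. It had 3.44, 5.34 and 4.39 FPKM in F5 and 25.5 and 23.6 FPKM in Lemma (log2 fold change -2.73, SE 0.207, adjusted p = 0.000535). In the isolated organs it had 131 to 160 FPKM in Anther and 109 to 129 FPKM in Ovary, and F1 had 31.7 to 75.8 FPKM. F5 was thus the lowest of the 5 groups for this gene as well, with no overlap with any other. WM13 (TraesCS7B02G286600) had 2.73, 4.24 and 2.34 FPKM in F5, 20.2 FPKM in both Lemma libraries, 90.2 to 115 FPKM in Anther and 88.1 to 114 FPKM in Ovary (log2 fold change -2.95, SE 0.259, adjusted p = 0.000733). TaAGL7 (TraesCS1D02G203300) had 0.833, 1.17 and 0.89 FPKM in F5 and 13.4 and 15.4 FPKM in Lemma (log2 fold change -4.14, SE 0.208, adjusted p = 0.000314).

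Of the 9 lower MADS-box genes 5 had means in both Anther and Ovary above Lemma, and 8 had both above F5. The calls of 4 of the 9 (TaAGL7, WM13, WM21B and the APETALA3-like gene) held under each alternative setting, and those of the other 5 were lost under at least 1. Without Lemma replicate 3, the MADS-box gene TraesCS5A02G286800 had a log2 fold change of -0.85 and WM14 (TraesCS1A02G264300) of -0.96, both uncalled. WM4 (TraesCS4D02G245200) was the higher gene, with 49.7, 48.3 and 49.7 FPKM in F5 and 7.93 and 7.20 FPKM in Lemma (log2 fold change 2.45, SE 0.162, adjusted p = 0.000428), and 15.6 FPKM or less in Anther and Ovary. Genes abundant in both groups did not pass. WM20 (TraesCS7D02G120500) had 73.0, 69.5 and 57.3 FPKM in F5 and 85.4 and 92.7 FPKM in Lemma, and 7.66 FPKM or less in Anther and Ovary. Vrn-A1 (TraesCS5A02G391700), a regulator of the vernalization response, had 84.6, 69.5 and 62.9 FPKM in F5 and 106 and 96.9 FPKM in Lemma (log2 fold change -0.73, SE 0.177, adjusted p = 0.0191), a change under 2-fold.

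**Figure D4:**
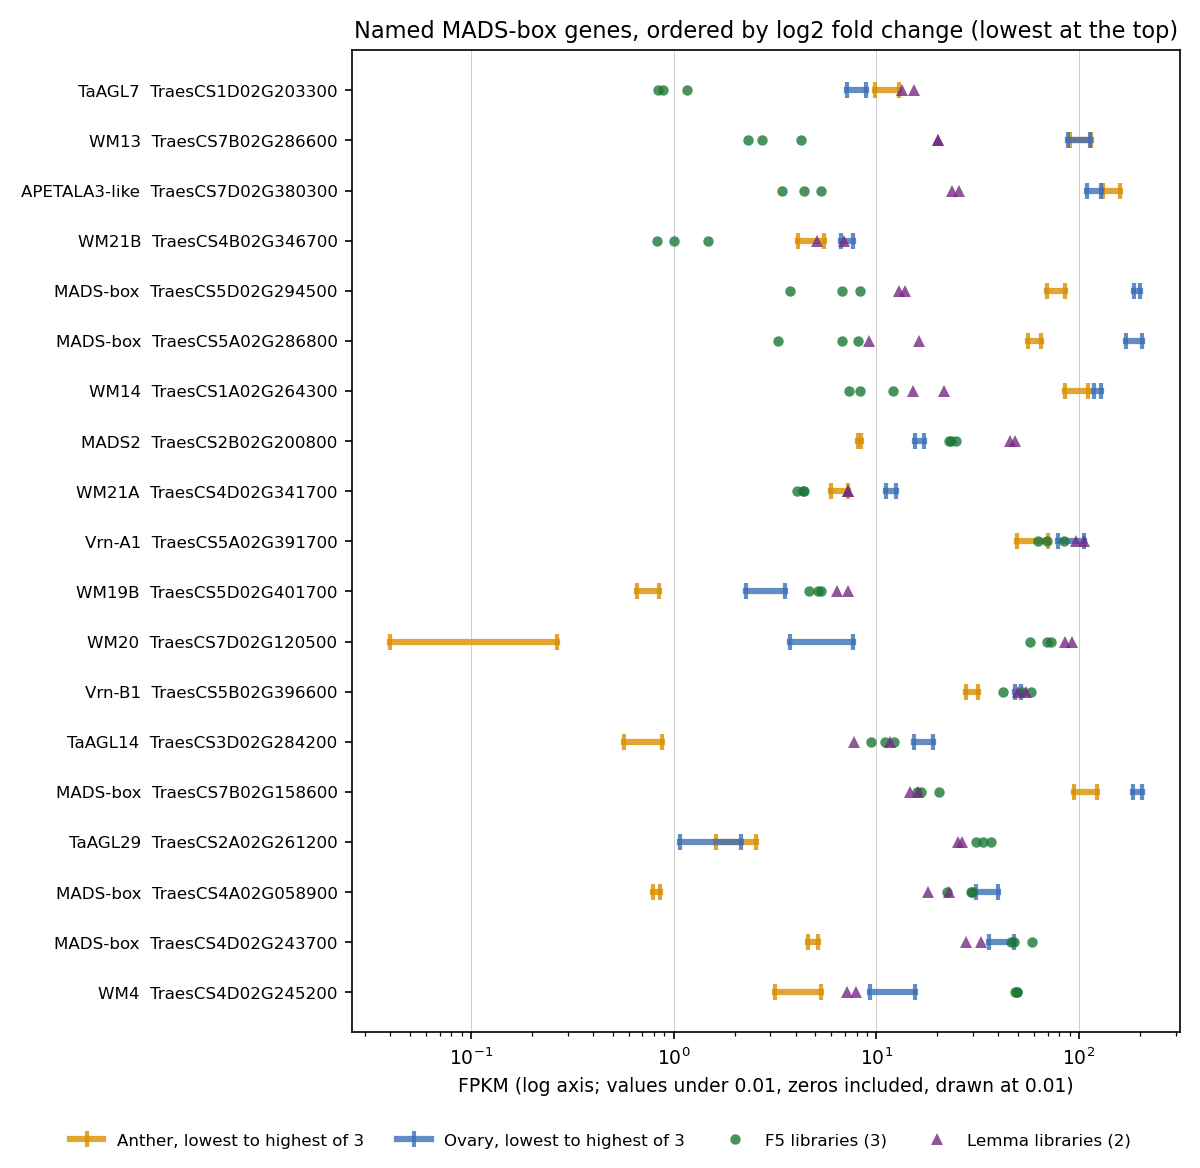
FPKM (log axis) of the 19 named MADS-box genes, ordered from the lowest log2 fold change at the top to the highest at the bottom, in each F5 (green circles) and Lemma (purple triangles) library, with bars from the lowest to the highest of 3 libraries for Anther (orange) and Ovary (blue). The APETALA3-like gene and WM13 are near 100 FPKM or above in Anther and Ovary, at 20.2 to 25.5 FPKM in Lemma and at 5.34 FPKM or less in F5, and WM4 at the bottom is the gene called higher in F5.

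Other transcription factors showed larger contrasts. The NAC domain genes TraesCS5A02G143200 and TraesCS5B02G142100 were among the most strongly raised of all described genes. The first had 34.4, 36.6 and 15.9 FPKM in F5 and 0.0221 and 0.0729 FPKM in Lemma (log2 fold change 8.90, SE 0.65, adjusted p = 0.000505). The second had 46.3, 46.1 and 17.7 FPKM in F5 and 0.0578 and 0.0977 FPKM in Lemma (log2 fold change 8.59, SE 0.654, adjusted p = 0.000535). F5 replicate 3 was the low F5 library for both, and Anther, Ovary and F1 libraries had at most 0.27 FPKM. The NAC list, matched by text, had 4 higher and 5 lower among 12 tested genes and need not stand for the whole family. Its sum was lower in F5 (165 to 236 FPKM) than in Lemma (330.2 and 339.7 FPKM). Its median log2 fold change was 0.33, and turned negative among genes with a mean of at least 5 FPKM (-1.263) and with the replicate block (-0.079). WRKY genes, many of which act in defence and senescence, included 9 lower and 0 higher among 17 tested genes (median -1.98). Without Lemma replicate 1 the lower count was 5, and without Lemma replicate 3 or F5 replicate 2 it was 6. The WRKY gene TraesCS2D02G168600 had 0.135, 0.99 and 0.617 FPKM in F5 and 18.2 and 10.9 FPKM in Lemma (log2 fold change -4.89, SE 0.687, adjusted p = 0.00286). MYB genes included 10 higher and 4 lower among 35 tested genes.

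Some genes of cold and defence were lower in F5. Late embryogenesis abundant and dehydrin genes protect cells that lose water. Of 18 tested genes 5 were lower and 0 higher (median -1.17), and the other 13 were not called. Their sum was 365, 268 and 204 FPKM in F5 and 817 and 996 FPKM in Lemma. The cold-responsive gene COR14a (TraesCS2D02G425200) had 0.113, 0.108 and 0 FPKM in F5 and 25.0 and 7.93 FPKM in Lemma (log2 fold change -7.88, SE 0.847, adjusted p = 0.00122). The CBF gene TraesCS6D02G238200, of the factors that turn on cold-responsive genes, had 0.14, 1.53 and 1.07 FPKM in F5 and 23.6 and 26.5 FPKM in Lemma (log2 fold change -5.02, SE 0.768, adjusted p = 0.00382). F5 replicate 1 was the lowest F5 library for the CBF and WRKY genes. Chitinase and glucanase genes, which attack fungal walls, included 20 lower and 6 higher among 57 tested genes, or 15 higher without Lemma replicate 3. Their median of -0.46 turned positive among genes with a mean of at least 5 FPKM (0.64). Defensins and thionins, small antimicrobial peptides, included 3 higher and 1 lower among 9 tested genes (median 1.46). Chitinase IV (TraesCS2B02G369100) had 1.79, 2.41 and 0.95 FPKM in F5 and 24.3 and 35.7 FPKM in Lemma (log2 fold change -4.37, SE 0.389, adjusted p = 0.000761). Of 11 heat shock protein genes 3 were lower and 0 higher, among them HSP70 (TraesCS1D02G284000), with 2.09, 2.81 and 2.27 FPKM in F5 and 7.77 and 17.7 FPKM in Lemma.

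Cysteine protease genes, for enzymes that break proteins down, included 44 higher (27.8%) and 7 lower among 158 tested genes (median 0.44). Their sum was 2368, 2369 and 1625 FPKM in F5 and 1094 and 1083 FPKM in Lemma. Autophagy and senescence genes included 15 higher (18.5%, near the 14.8% of all genes) and 4 lower among 81 tested genes (median 0.17). Without Lemma replicate 3 the higher count was 7, and without Lemma replicate 1 it was 9. The senescence-associated gene TraesCS7D02G531600 had 12.5, 12.3 and 13.9 FPKM in F5 and 0.704 and 1.26 FPKM in Lemma (log2 fold change 3.46, SE 0.297, adjusted p = 0.00069).

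Genes that differ between the isolated anther and ovary were followed in F5 and Lemma. These lists were not set against lemma, palea or lodicules, so their shares do not show which organs F5 holds. Genes were listed as anther-over-ovary or ovary-over-anther when they were called in Anther against Ovary, differed at least 16-fold and reached 10 FPKM in the higher organ, which used no F5 or Lemma library. The rule gave 1800 anther-over-ovary genes (2.60% of 69296 tested) and 885 ovary-over-anther genes (1.28%). The anther-over-ovary list took 0.451, 0.483 and 0.443% of the counts in the F5 libraries and 0.514 and 0.48% in the Lemma libraries. It took 20.8 to 22.1% in Anther and 0.235 to 0.265% in Ovary. F5 minus Lemma was -0.0379 percentage points on average, and the libraries overlapped. The exact permutation p of 0.4, from 3 libraries against 2, which cannot go below 0.2, says nothing on whether the groups were alike. With lists defined at 4-fold the direction of the share turned, with 3.03 to 3.16% in F5 and 2.86 and 3.02% in Lemma. The gene calls did not turn. Of 1846 tested genes in the 4-fold anther-over-ovary list, 260 were higher in F5 and 284 lower (median -0.06). Shares of counts lack TMM, and whether their turn holds under it was not tested. Of the 1800 genes, 1495 were under 1 FPKM in all F5 libraries and 1529 in all Lemma libraries. Among the 757 that could be tested, 103 were higher in F5 and 143 lower. F1 lay between F5 and Anther, at 0.632 to 1.97%.

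The ovary-over-anther list took 1.22, 1.10 and 1.39% of the counts in F5 and 0.59 and 0.849% in Lemma. It took 4.66 to 4.91% in Ovary and 0.0727 to 0.114% in Anther. Of its 885 genes, 97 had a mean of at least 10 FPKM in Lemma and 160 in F5, so the list is not particular to the ovary. Every F5 library was above both Lemma libraries, by 0.516 percentage points on average (exact permutation p = 0.2, the smallest this design allows). Of 835 tested genes in this list 238 (28.5%) were higher in F5 and 65 (7.78%) lower, with a median log2 fold change of 0.97. Genes annotated to pollen, anther or tapetum included 15 higher and 14 lower among 127 tested genes, near the background in both directions. The lower count was 8 without Lemma replicate 1 or F5 replicate 1 and 9 without F5 replicate 3.

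**Figure D5:**
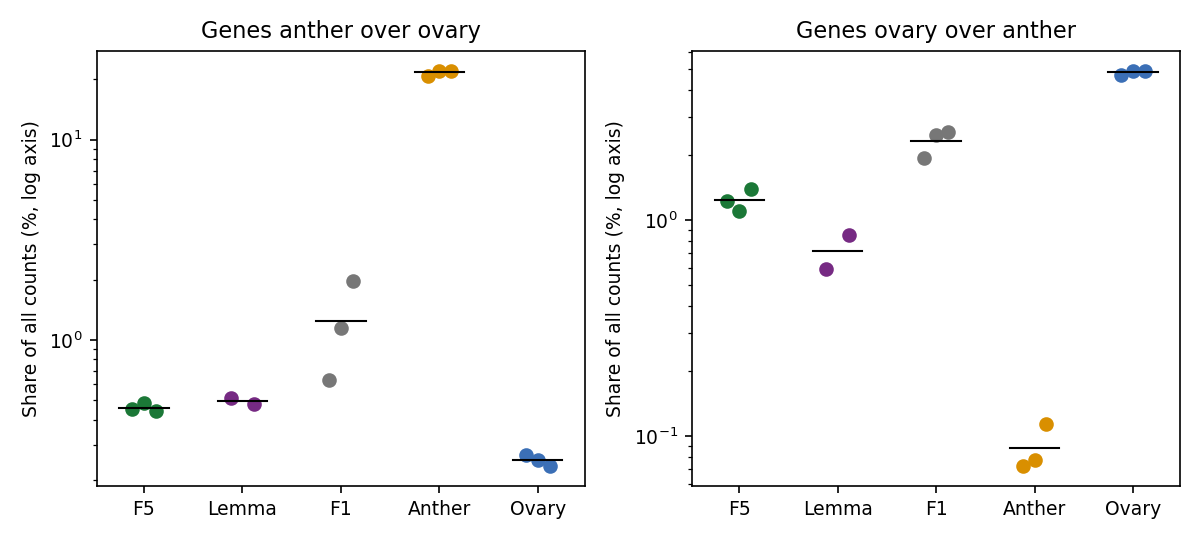
Share of all counts (percent, log axis) taken by the 1800 anther-over-ovary genes (left) and the 885 ovary-over-anther genes (right) in each library of the 5 groups, with black lines for group means. F5 and Lemma overlap for the anther-over-ovary genes (0.443 to 0.514% over both groups), where lists defined at 4-fold put F5 at 3.03 to 3.16% and Lemma at 2.86 and 3.02%. F5 lies above Lemma for the ovary-over-anther genes (1.10 to 1.39% against 0.59 and 0.849%).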

How the data were processed

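Of 14 bulk RNA-seq libraries of wheat, 5 form the comparison of F5 (n = 3) with Lemma (n = 2). The deposited table gives the authors' raw counts per gene and the authors' FPKM, per the file headers. Per the submitters' processing notes the tool was Bowtie 0.12.2 and the build mm8, a mouse build that cannot hold wheat genes, and for the wheat values themselves the aligner, the build and the annotation are not given. None of the gene IDs (0) matched the RefSeq gene table, and no sequences are shown.

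Library sizes were normalized with TMM, and genes were filtered with filterByExpr and fitted with robust quasi-likelihood models in edgeR 4.0.16 (R 4.3.3), two-sided, with Benjamini-Hochberg adjustment over all tested genes. The SE is the log2 fold change divided by the square root of F. FPKM are shown as levels. Alternatives used limma 3.58.1 and DESeq2 1.42.0. Where a group had no counts, its total was set to 3 counts, which covers counting error only. On simulated counts for F5 against Lemma, edgeR called 86 of 100 4-fold changes and 15 of 100 2-fold changes. It also called 6 unchanged genes, with 69970 genes simulated in all. Far fewer genes were changed there than the 28.3% called in the data. The simulated spread followed the trend with level and not each gene's own spread. These rates therefore need not hold for the real comparison.

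The 55 gene lists were matched as text to descriptions or, for genes with none, to ontology terms, and 14.4% of tested genes have a name or description. The comparison and the lists were chosen with earlier results of these data known. Named genes are the 10 highest and 10 lowest log2 fold changes among described, called genes with at least 10 FPKM and no overlap, up to 2 described called members of each list with at least 5 FPKM, every named MADS-box gene with at least 5 FPKM, and at most 2 genes per direction without a description. Not all of them are printed. Replicate numbers were not used as pairs.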

Additional observations from a re-analysis of the deposited data

How the results depend on the processing

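The 10354 higher and 9445 lower genes became 4922 and 5456 after quantile normalization, 3027 and 2825 among the 21302 genes with a mean of at least 5 FPKM, 6329 and 4464 with limma on log2(FPKM + 1), and 5606 and 4839 at a minimum of 4-fold. With limma on log2(FPKM + 0.1) the split was 14035 higher to 8067 lower, with a median over all genes of 0.27. Leaving out each library gave 7985 to 8973 higher and 6825 to 8794 lower genes. No gene called in the reported fit was called in the opposite direction under an alternative (0 genes). The replicate block, which needs the numbers shared by F5 and Lemma (1 and 3), gave 7240 higher and 7176 lower genes. Same-numbered libraries did not deviate together (correlations 0.028 and 0.021), so the numbers were not taken as pairs. With organ lists defined at 4-fold, F5 minus Lemma was 0.178 percentage points for the anther-over-ovary genes, the opposite sign, and 1.41 for the ovary-over-anther genes. Leaving out libraries gave -0.0551 to -0.0207 and 0.387 to 0.646. Of 109 named genes 18 lost a call under at least 1 alternative, and no called gene changed sign. The uncalled MADS-box genes TaAGL14, Vrn-B1 and TraesCS7B02G158600 took a small positive value (0.25 or less) in place of a negative one under 1 to 7 settings. Lemma has 2 libraries, so without either of them the other is assumed to vary like F5.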

Other observations

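The deposited pathway annotation was read across 131 pathways with at least 20 tested genes. Linoleic acid metabolism, which holds the lipoxygenases, had the highest share of higher genes, at 33 of 68 (48.5%), followed by globo- and isoglobo-series glycosphingolipid synthesis (19 of 42) and cutin, suberine and wax synthesis (96 of 250). Carotenoid synthesis, which makes the pigments that protect chlorophyll, had the highest share of lower genes, at 58 of 173 (33.5%). Glucosinolate synthesis (7 of 21) and flavone and flavonol synthesis (39 of 122) followed. The glucosinolate pathway also had 4 higher genes, and its median log2 fold change was positive (0.73). Pathway names are those of the deposited annotation, and whether wheat makes each product was not tested. The pathway shares are counts beside the 14.8% higher and 13.5% lower over all genes, with no test. The 3 subgenomes of bread wheat were alike, with 14.6% of tested genes higher on A, 15.0% on B and 15.0% on D, and 13.4%, 12.6% and 13.9% lower.

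Some of the most changed genes have no description. TraesCS2A02G188500, annotated to sequence-specific DNA binding, had 35.2, 45.0 and 27.7 FPKM in F5 and no counts in Lemma, and was at least 2184-fold higher. TraesCS2A02G014800, annotated to acyl transfer, had 12.8, 21.4 and 18.0 FPKM in F5, no counts in Lemma and no level above 0 in Anther and Ovary. TraesCS2B02G046000, annotated to ADP binding, had 0.0179, 0.0922 and 0.0177 FPKM in F5 and 24.5 and 14.8 FPKM in Lemma (log2 fold change -9.04, SE 0.608, adjusted p = 0.000444). Among described genes, Patatin TraesCS4A02G017400, of a family of lipid hydrolases, had 0.266, 0.828 and 0.241 FPKM in F5 and 27.3 and 27.4 FPKM in Lemma (log2 fold change -6.18, SE 0.543, adjusted p = 0.000734).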
